A study of Mus musculus with 23 samples.

Results

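The mitochondrial respiratory chain genes described here are the 94 of 18194 measured mouse genes whose symbol on the array starts with Nduf, Sdha to Sdhd, Uqcr, Cox4 to Cox8 or Atp5. They were chosen by name alone, and each was read from the probe set that names that gene alone and has the highest mean over all 23 arrays. They comprise 42 genes of complex I, 8 of complex II, 8 of complex III, 19 of complex IV and 17 of ATP synthase, on 19 chromosomes, and 12 of the 94 are assembly factors of complexes I and II and not parts of the finished complexes. Another 8 symbols that start in these ways, Ndufs6 and Ndufa11 among them, stand only on probe sets shared between genes and are not used here.

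Total RNA of mouse CD4+ T cells was hybridised after sorting by the surface proteins CD25, the interleukin-2 receptor alpha chain, and CD49f, the integrin alpha 6 chain. The CD25+CD49f+ gate had 4 arrays, CD25+CD49f- had 5, CD25-CD49f+ had 7 and CD25-CD49f- had 7, all labelled as biological replicates from female mice. The labels used here give no strain, age, treatment or number of animals, so p-values reflect only how these samples vary, which may be technical. The series asks how gene expression differs between the 4 gates, and its title places the CD49f+ cells among regulatory T cells (Treg cells).

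Complexes I and II pass electrons from NADH and from succinate to ubiquinone, complex III passes them on to cytochrome c, and complex IV to oxygen. Complexes I, III and IV pump protons as they do so, and ATP synthase uses the returning protons to make ATP. Most subunits are coded in the nucleus and a few in mitochondrial DNA, and T cells raise the activity of the chain when they leave rest and divide.

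The gates differed in their markers before any respiratory gene was compared. Foxp3, the transcription factor of Treg cells, had median log2 levels of 9.84 in CD25+CD49f+ cells, 9.79 in CD25+CD49f- cells, 8.36 on CD25-CD49f+ arrays and 4.77 on CD25-CD49f- arrays, and Mki67, a gene of dividing cells, had 9.26, 8.78, 10.49 and 7.80 in the same order. All 7 markers of CD4 T cells averaged between 10.43 and 11.10 on every array. The 7 markers of myeloid and dendritic cells averaged a median of 6.38, 6.34, 6.67 and 7.35 over the 4 gates in that order, with Itgax, Siglech and Flt3 highest in CD25-CD49f- cells Lyz2 and Csf1r overlapping between the CD25- gates (medians of 9.48 and 8.34 on CD25-CD49f+ arrays, and 9.45 and 8.38 on CD25-CD49f- arrays), and Itgam and Cd14 in the range of an absent transcript. That range reaches to log2 6.50 here, the highest signal of Xist on arrays that lack it. Within their group, 4 arrays stood apart with a mean correlation to the other arrays below 0.987, the lowest of the rest: CD25+CD49f- replicate 5, CD25-CD49f+ replicate 1 and CD25-CD49f- replicates 1 and 7. Although all mice are labelled female, Y-linked transcripts were present on 11 arrays, with 2, 3, 3 and 3 in the 4 gates, and 1 of those 11 also carried Xist. Counts are therefore also given without the 4 arrays and within arrays without Y-linked transcripts (12 arrays) or with them and without Xist (10 arrays).

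Respiratory chain transcripts were lowest in CD25-CD49f- cells, and the differences were small. Each gene's level was centred on its mean over the 23 arrays, and the 71 structural subunits above the absent range, tissue isoforms left out, were averaged on each array. That average was 0.01 ± 0.09 (SD, n = 4) on CD25+CD49f+ arrays, 0.09 ± 0.08 (SD, n = 5) on CD25+CD49f- arrays, 0.06 ± 0.03 (SD, n = 7) on CD25-CD49f+ arrays and -0.12 ± 0.14 (SD, n = 7) on CD25-CD49f- arrays. The 7 CD25-CD49f- arrays ran between -0.40 and 0.00, with replicate 7 lowest, and the 7 CD25-CD49f+ arrays between 0.00 and 0.08. Without the 4 arrays that stood apart, CD25-CD49f- cells averaged -0.09 ± 0.06 (SD, n = 5). In bulk samples, fewer cells with a transcript and less of it per cell cannot be told apart.

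**Figure D1:**
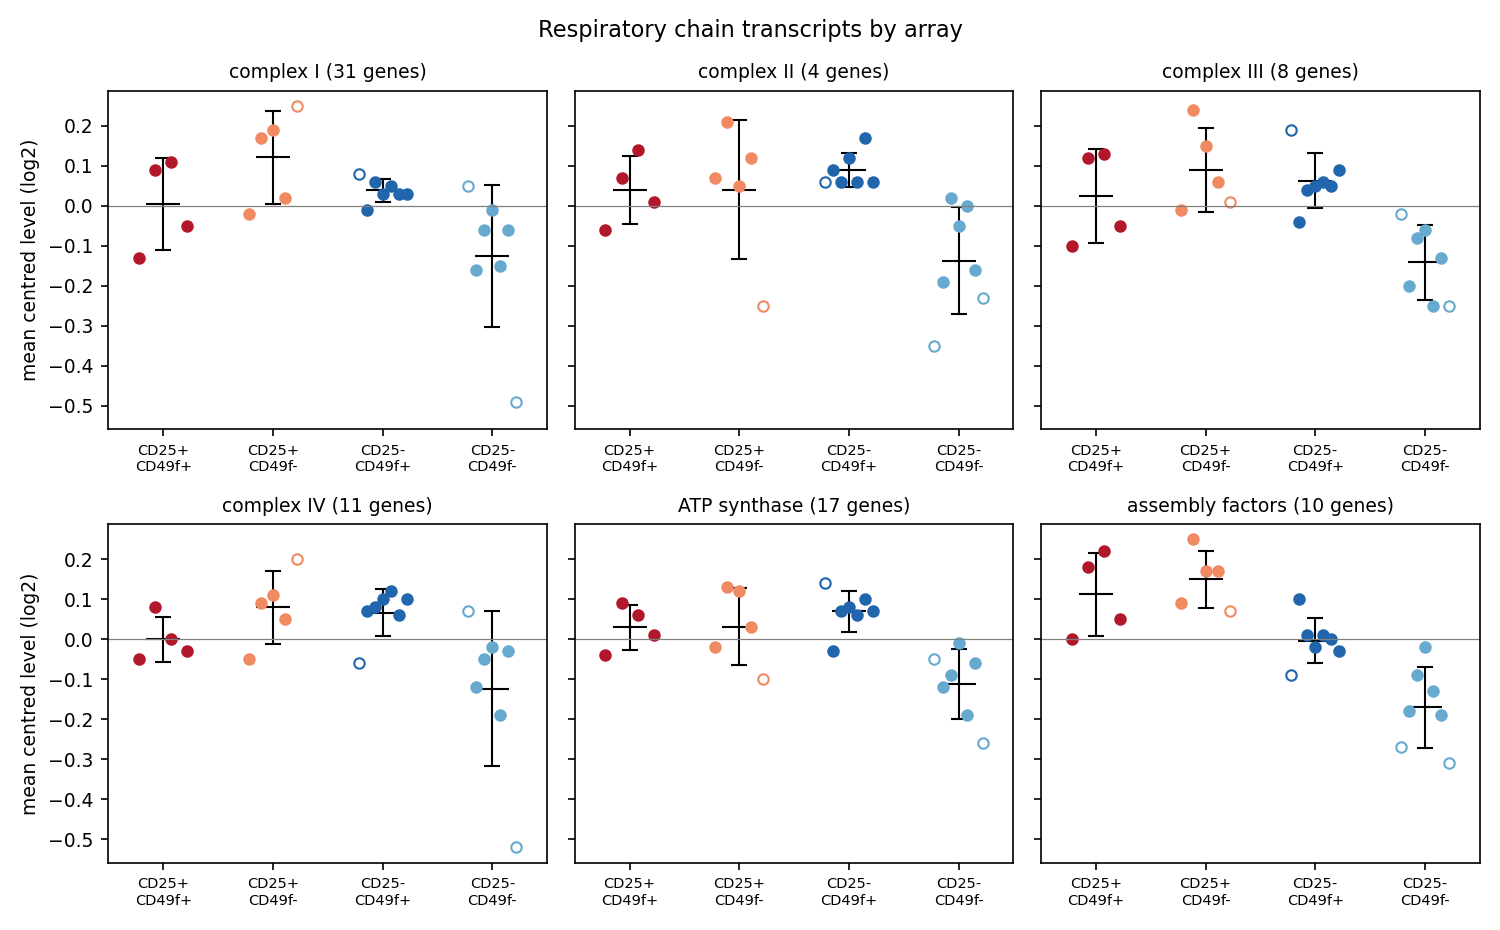
Mean centred log2 level of the subunits above the absent range in each complex, and of the assembly factors, on each array (points), with the group mean and SD (bars) for the 4 gates. Open points are the 4 arrays that stood apart. The CD25-CD49f- arrays sit lowest in each panel on average, and their replicate 7 is lowest in complex I at -0.49 and in complex IV at -0.52.

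Calls were made gene by gene with limma at an adjusted p under 0.05 over all 18194 genes. CD25-CD49f+ cells exceeded CD25-CD49f- cells in 13 of the 94 genes and were below them in 1, against a background of 13.4% of all genes called in this comparison, 8.01% higher and 5.42% lower. CD25+CD49f- cells exceeded CD25-CD49f- cells in 16 genes and were below them in 1, against 14% of all genes called, 9.34% higher and 4.68% lower. Both comparisons share the 7 CD25-CD49f- arrays. The shares called either way on all arrays, 14.9% and 18.1%, were thus near the background. As higher, 13.8% and 17% of the 94 were called, beside 8.01% and 9.34% of all genes. Of the 94 differences, 81 were above 0 for CD49f within CD25- cells, with a median of 0.16 against -0.02 over all genes, and 79 for CD25 within CD49f- cells, with a median of 0.18 against -0.01. Genes are not independent replicates, and these counts of signs are a description. Leaving out CD25-CD49f+ replicate 4 alone gave 8 calls in place of 14 for CD49f within CD25- cells. Without the 4 arrays 27 were higher and 2 lower for CD49f within CD25- cells, 30.9% of the 94. Of all genes, 19.1% were called in that setting, 10.3% higher and 8.76% lower. The counts for CD25 within CD49f- cells were then 24 higher and 2 lower, 27.7% of the 94. Of all genes, 19.7% were called there, 12.4% higher and 7.28% lower. Within the 12 arrays free of Y-linked transcripts, limma called 0 of the 94 genes for CD49f within CD25- cells, with 13 at an unadjusted p under 0.05 and 7.37% of all genes called, and 1 for CD25 within CD49f- cells (7.06% of all genes). Within the 10 Y-linked arrays it called 3 (5.94% of all genes) and 4 (5.52% of all genes). The 14 and 17 genes called on all arrays kept their sign in both subsets. They were called on the arrays that make up these subsets, so the shared sign is no independent support.

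Few respiratory genes were called in the other 2 pairwise comparisons. With limma, CD49f within CD25+ cells gave 0 calls among the 94 genes, where 1.82% of all genes were called, and 2 of them had an unadjusted p under 0.05. The median difference was -0.07, against 0.01 over all genes. For CD25 within CD49f+ cells 1 of 94 was called, the assembly factor Sdhaf1 as higher in CD25+ cells, against 5.72% of all genes, 2.81% higher and 2.91% lower, and the median difference was -0.03. Leaving out the 4 arrays gave 0 (3.23% of all genes), with 3 at an unadjusted p under 0.05, and 3 (13% of all genes, 6% higher and 6.97% lower), with Atp5h and Uqcrfs1 added as lower in CD25+CD49f+ cells.

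**Figure D2:**
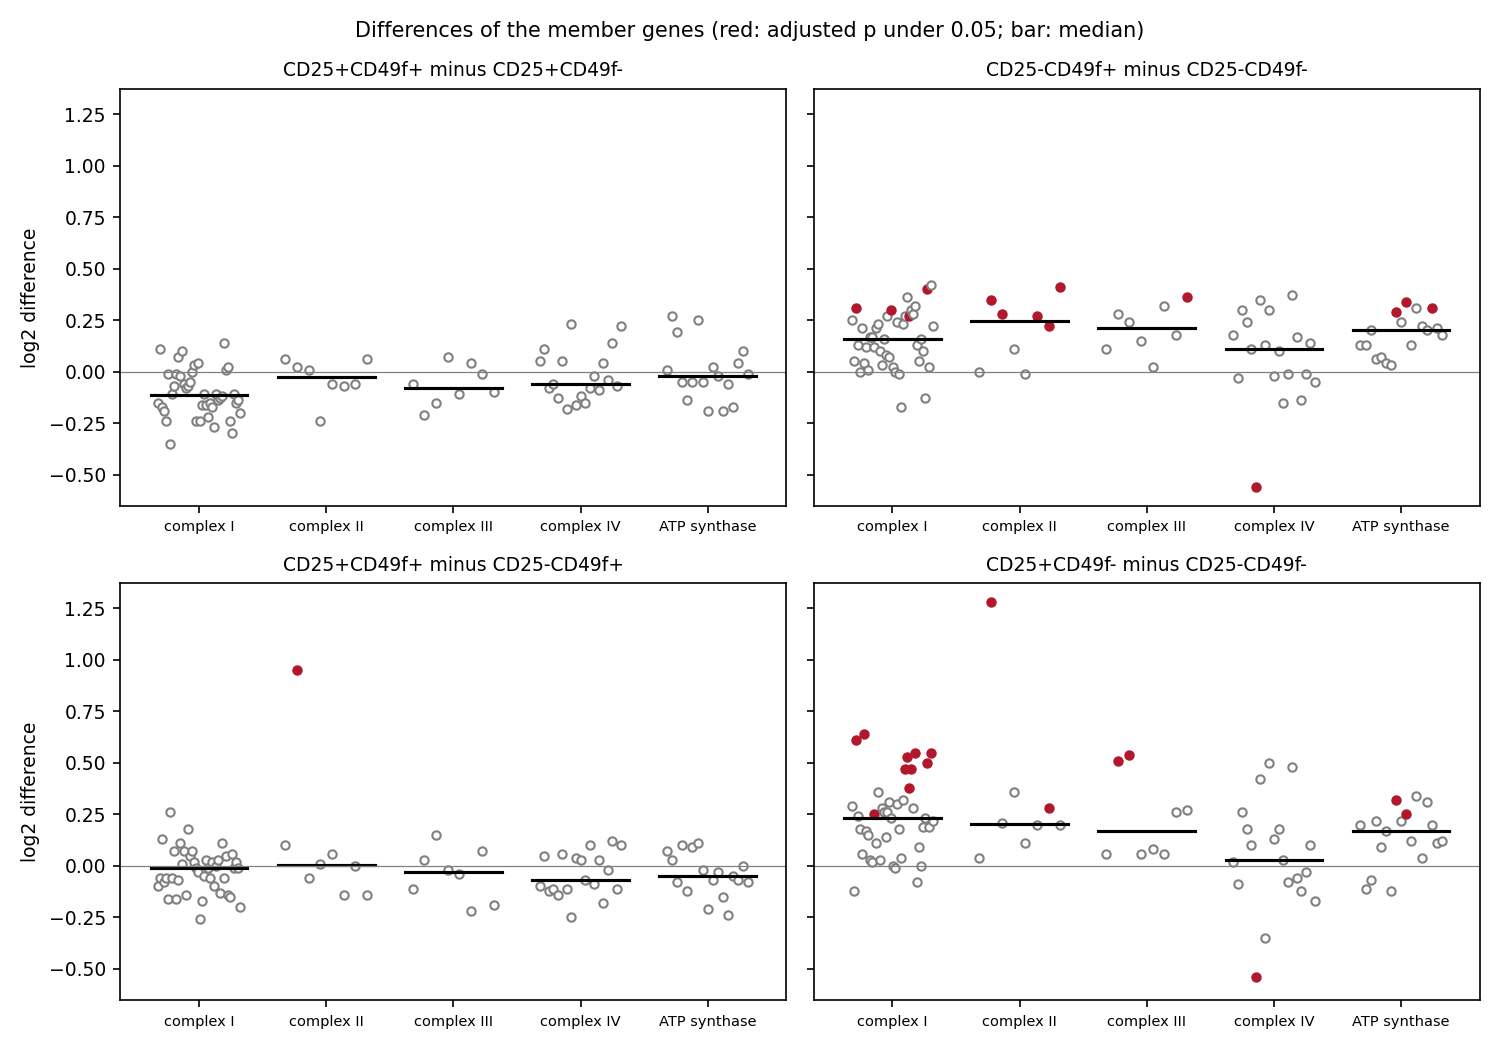
Log2 difference of each of the 94 genes in 4 comparisons (panels), grouped by complex, with red points for an adjusted p under 0.05 and a bar at the median of the complex. The red points are 0 and 14 for CD49f within CD25+ and CD25- cells (top) and 1 and 17 for CD25 within CD49f+ and CD49f- cells (bottom).

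Nuclear respiratory genes are known targets of ETS factors such as GABP, of NRF1 and of YY1, and the promoters of 78 of the 94 genes were available in RefSeq (GRCm38.p6), as 300 bases each, 250 before the start and 50 after it. On either strand, the ETS letters CCGGAAG stood in 26.9% of the 78 promoters and in 13.8% of the 14369 promoters of array genes. For the NRF1 letters GCATGCG the shares were 14.1% and 5.33%, and for the YY1 letters ATGGCGG they were 14.1% and 6.32%. At least 1 of these 3 motifs, none of which contains another, stood in 46.2% and 22.7%. A match is a description of the sequence only. The stretches from 80 bases before the start to 30 bases after it are shown for 5 genes called in these data, chosen after their values were seen because they carry such matches, with the matches in capitals (CTTCCGG is the ETS motif on the other strand).
Sdhaf1 (chr7:30322346-30322455, minus strand): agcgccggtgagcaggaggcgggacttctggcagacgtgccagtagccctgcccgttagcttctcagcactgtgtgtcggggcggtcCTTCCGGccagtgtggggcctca
Sdhb (chr4:140961191-140961300, plus strand): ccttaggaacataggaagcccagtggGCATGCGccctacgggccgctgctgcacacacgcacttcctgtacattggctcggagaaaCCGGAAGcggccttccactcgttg
Sdhd (chr9:50603820-50603929, minus strand): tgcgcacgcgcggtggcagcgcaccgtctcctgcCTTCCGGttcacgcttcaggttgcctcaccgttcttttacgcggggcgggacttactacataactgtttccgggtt
Ndufs8 (chr19:3912745-3912854, minus strand): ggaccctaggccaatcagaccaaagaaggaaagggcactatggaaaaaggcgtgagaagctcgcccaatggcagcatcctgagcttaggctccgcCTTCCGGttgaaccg
Uqcr11 (chr10:80406792-80406901, minus strand): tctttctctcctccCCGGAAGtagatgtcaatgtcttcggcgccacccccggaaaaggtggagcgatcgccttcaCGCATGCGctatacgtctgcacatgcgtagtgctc
Sdhaf1, Sdhd and Ndufs8 hold an ETS match on the other strand, Sdhb holds an NRF1 and an ETS match, and Uqcr11 holds an ETS match and 1 stretch that reads as NRF1 on both strands.

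Complex II is the succinate dehydrogenase shared with the citric acid cycle, and 5 of its 8 genes were higher for CD49f within CD25- cells. That is 62.5% of them, against 13.4% of all genes called, 8.01% higher. Sdhaf1, a small protein that helps to load iron-sulfur clusters into Sdhb, had the largest difference by CD25 of the 94 genes. Its log2 levels were 9.64, 9.39, 9.65 and 9.39 on CD25+CD49f+ arrays and 9.71, 9.45, 9.38, 9.57 and 9.38 on CD25+CD49f- arrays. They were 8.26 to 8.72 (median 8.63) in CD25-CD49f+ cells and 8.0 to 8.51 (median 8.19) in CD25-CD49f- cells. Every CD25+ array was thus above every CD25- array, while the CD25+ groups overlapped each other and so did the CD25- groups. The difference by CD25 was 0.95 ± 0.10 (SE) within CD49f+ cells (limma adjusted p = 4.81e-07), which is 1.94-fold, and 1.28 ± 0.10 within CD49f- cells (limma adjusted p = 1.91e-10), which is 2.43-fold. By CD49f it was 0.02 (95% interval -0.21 to 0.25) within CD25+ cells and 0.35 ± 0.09 within CD25- cells (limma adjusted p = 0.00726). The last of these differences was 0.37 within arrays free of Y-linked transcripts and 0.32 within Y-linked arrays, as large as on all arrays but not called in these smaller sets (limma adjusted p = 0.132 and 0.236).

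Of the 4 catalytic and anchor subunits of complex II, 3 were called and 1 was not. Sdhb, the iron-sulfur subunit, had levels of 9.79, 9.81, 10.03 and 9.82 on CD25+CD49f+ arrays and 9.88, 10.06, 9.97, 9.75 and 10.01 on CD25+CD49f- arrays, and it ran from 9.88 to 10.26 (median 9.96) in CD25-CD49f+ cells and from 9.51 to 10.09 (median 9.71) in CD25-CD49f- cells. All CD25-CD49f+ arrays lay above all CD25-CD49f- arrays except CD25-CD49f- replicate 7 at 10.09. The difference by CD49f was 0.27 ± 0.08 (SE) within CD25- cells (limma adjusted p = 0.0268) and -0.07 within CD25+ cells (95% interval -0.28 to 0.14). Sdhd, a membrane anchor, ran from 9.39 to 9.82 in CD25-CD49f+ cells and from 8.68 to 9.53 in CD25-CD49f- cells, a difference of 0.41 ± 0.13 (limma adjusted p = 0.0362) that was 0.28 without the 4 arrays. Sdhc, the other anchor, differed by 0.22 ± 0.07 in that comparison (limma adjusted p = 0.0374), a call lost without the 4 arrays (0.19, adjusted p = 0.0615), and by 0.28 ± 0.08 for CD25 within CD49f- cells (limma adjusted p = 0.0165). On its other probe set Sdhd differed by only 0.01 for CD49f within CD25- cells. The other probe set of Sdhc gave 0.02 there and 0.03 for CD25 within CD49f- cells. With the mean of all probe sets these calls of Sdhd and Sdhc were lost. Sdha, the flavoprotein, was not called in any comparison, and its mean was 10.35 ± 0.06 (SD, n = 7) on CD25-CD49f+ arrays and 10.35 ± 0.19 (SD, n = 7) on CD25-CD49f- arrays. Sdhaf2, which helps to attach flavin to Sdha, differed by 0.28 ± 0.08 for CD49f within CD25- cells (limma adjusted p = 0.0263), whereas Sdhaf4, which binds flavinated Sdha, differed by -0.01. Over 38 alternatives, the calls in this comparison were kept in 28 for Sdhb, 21 for Sdhc, 26 for Sdhd, 27 for Sdhaf2 and 36 for Sdhaf1. Those of Sdhb, Sdhc, Sdhd and Sdhaf2 were each lost on leaving out any of several single arrays.

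**Figure D3:**
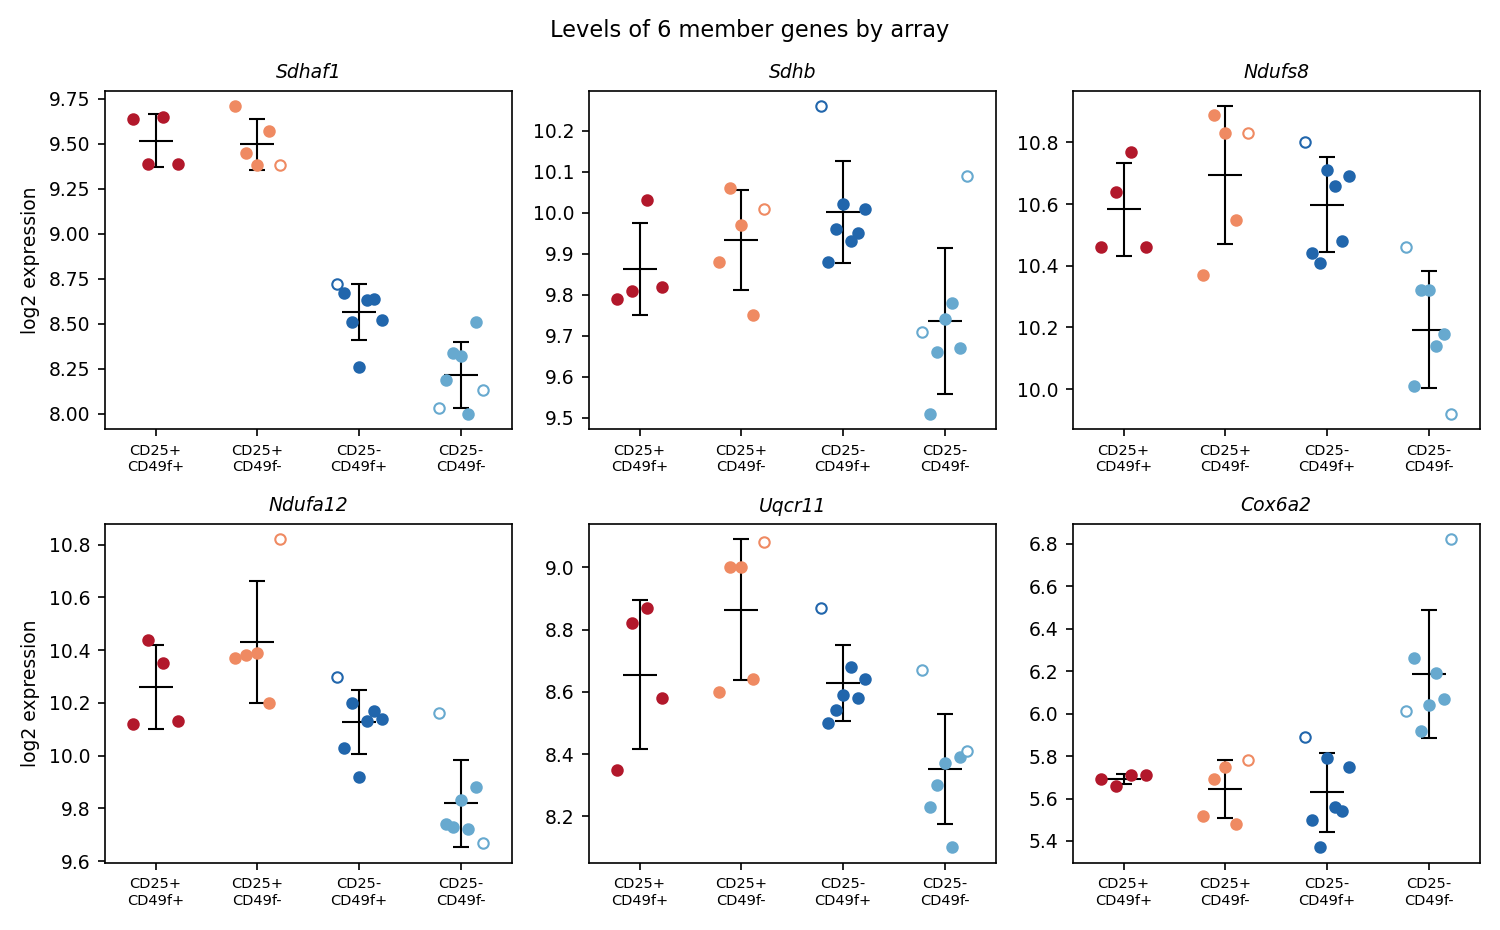
Log2 levels of 6 genes on each array (points) with the group mean and SD (bars) in the 4 gates, each panel on its own scale. Open points are the 4 arrays that stood apart. Sdhaf1 lies at 9.38 or above on all CD25+ arrays and at 8.72 or below on all CD25- arrays, while Cox6a2 is higher only on CD25-CD49f- arrays, where it lies at 5.92 to 6.82.

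Complex I contributed 10 of the 16 genes higher for CD25 within CD49f- cells, out of 42, and 4 of the 13 higher for CD49f within CD25- cells. These are 23.8% and 9.52% of the 42. Of all genes, 14% and 13.4% were called in these comparisons, 9.34% and 8.01% as higher. On the probe sets used, the second share is thus near the background. Of the 6 measured core subunits, Ndufs8, which carries iron-sulfur clusters on the path to ubiquinone, was called in both comparisons. It had levels of 10.46, 10.64, 10.77 and 10.46 on CD25+CD49f+ arrays, 10.37, 10.89, 10.83, 10.55 and 10.83 on CD25+CD49f- arrays, 10.41 to 10.80 (median 10.66) in CD25-CD49f+ cells and 9.92 to 10.46 (median 10.18) in CD25-CD49f- cells. The CD25-CD49f- arrays were lowest but for replicate 1 at 10.46, which overlapped the other gates. The difference was 0.40 ± 0.10 (SE) for CD49f within CD25- cells (limma adjusted p = 0.00433) and 0.50 ± 0.11 for CD25 within CD49f- cells (limma adjusted p = 0.00115), whereas it was -0.11 (95% interval -0.36 to 0.14) for CD49f within CD25+ cells. Ndufv2, an iron-sulfur subunit next to the NADH site, differed by 0.55 ± 0.16 for CD25 within CD49f- cells (limma adjusted p = 0.0194). Its level of 9.08 on CD25-CD49f- replicate 7 stood far below the 10.30 to 10.42 of the other 6 arrays of that gate, and the difference was 0.31 without the 4 arrays (adjusted p = 9.41e-04). Ndufs1, Ndufs3, Ndufs7 and Ndufv1, the flavin-bearing subunit, were not called in any comparison, with differences of 0.13, 0.05, -0.13 and 0.02 for CD49f within CD25- cells.

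The accessory subunits of complex I gave the remaining calls. Ndufa12, on the arm that reaches into the matrix, had levels of 10.12, 10.44, 10.35 and 10.13 on CD25+CD49f+ arrays, 10.37, 10.38, 10.39, 10.20 and 10.82 on CD25+CD49f- arrays, 9.92 to 10.30 (median 10.14) in CD25-CD49f+ cells and 9.67 to 10.16 (median 9.74) in CD25-CD49f- cells. Every CD25+CD49f- array was above every CD25-CD49f- array, by 0.61 ± 0.10 (SE) on average (limma adjusted p = 6.48e-05), and the gates that differ by CD49f among CD25- cells overlapped through CD25-CD49f- replicate 1, with a difference of 0.31 ± 0.09 (limma adjusted p = 0.0236). Ndufb6 and Ndufb8, of the membrane arm, differed by 0.47 and 0.38 for CD25 within CD49f- cells (limma adjusted p = 0.00157 and 0.0036) and by 0.27 each for CD49f within CD25- cells, where Ndufb8 was called (limma adjusted p = 0.0270) and Ndufb6 was not (0.0502). With limma over all probe sets, another probe set of Ndufb6 passed for CD49f within CD25- cells, at 0.38 (adjusted p = 0.00403). So did other probe sets of Ndufb7, Ndufb9 and Ndufc2, at 0.34, 0.34 and 0.36 (adjusted p = 0.00852, 0.00132 and 0.0273). Another of Ndufb11 passed at 0.23 (adjusted p = 0.0286), and a further one did not, at 0.03. Other probe sets of Ndufs7 and Ndufv1 did not pass. Ndufa5, Ndufb7, Ndufb9 and Ndufc2 were called for CD25 within CD49f- cells with differences of 0.64, 0.53, 0.47 and 0.55, and all 4 had their lowest level of all arrays on CD25-CD49f- replicate 7 and their highest on CD25+CD49f- replicate 5. Leaving out the 4 arrays gave differences of 0.34, 0.33, 0.31 and 0.35, each still under an adjusted p of 0.05. The difference between 3' and 5' Actb probe sets, a sign of RNA quality, was 4.83 on CD25+CD49f- replicate 5, the highest of all arrays. With that difference as a term in the fit, Ndufa5, Ndufb7 and Ndufc2 were at 0.43, 0.36 and 0.44 and no longer called (limma adjusted p = 0.118, 0.0750 and 0.0756), and neither was Ndufv2 (0.46, adjusted p = 0.0620). Ndufab1, the mitochondrial acyl carrier protein, differed by 0.25 ± 0.08 (limma adjusted p = 0.0441) in that comparison. Ndufb1 was also called for CD49f within CD25- cells, but its signal of 4.66 to 5.49 lies in the absent range. The 8 complex I assembly factors of the Ndufaf type held no call on all arrays.

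Complex III, with 8 genes, had 1 gene higher for CD49f within CD25- cells (12.5%, against 13.4% of all genes called) and 2 higher for CD25 within CD49f- cells (25%, against 14%). Uqcrq, a small subunit, was the first of these, with levels of 9.83 to 10.55 (median 10.07) in CD25-CD49f+ cells and 9.42 to 10.11 (median 9.70) in CD25-CD49f- cells, and the gates overlapped. Its difference was 0.36 ± 0.10 (SE; limma adjusted p = 0.0205). Uqcr11, another small subunit, had levels of 8.60, 9.0, 9.0, 8.64 and 9.08 in CD25+CD49f- cells and 8.10 to 8.67 (median 8.37) in CD25-CD49f- cells, a difference of 0.51 ± 0.11 (limma adjusted p = 0.00104). Only CD25-CD49f- replicate 1, at 8.67, reached into the range of the CD25+CD49f- arrays. Uqcrb, a subunit near the quinone site, had levels of 12.65, 12.88, 12.69, 12.78 and 12.98 in CD25+CD49f- cells and 11.60 to 12.55 (median 12.33) in CD25-CD49f- cells, with no overlap. That difference was 0.54 ± 0.12 on all arrays (limma adjusted p = 0.00144) and 0.43 without the 4 arrays. The core proteins Uqcrc1 and Uqcrc2 and the Rieske iron-sulfur protein Uqcrfs1 were not called on all arrays, with differences of 0.15, 0.02 and 0.32 for CD49f within CD25- cells.

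On all arrays and the probe sets used, complex IV, cytochrome c oxidase, held no gene called as higher among its 19. Its 1 called gene was lower, 5.26% of the 19 in each comparison with CD25-CD49f- cells. Of all genes, 13.4% were called for CD49f within CD25- cells and 14% for CD25 within CD49f- cells. With limma over all probe sets, other probe sets of Cox5b, Cox6b1 and Cox6c passed for CD49f within CD25- cells. They differed by 0.45, 0.29 and 0.37 (adjusted p = 3.88e-04, 0.00637 and 0.01). Those of Cox6b1 and Cox6c also passed for CD25 within CD49f- cells (adjusted p = 0.0226 and 0.0134). The other probe sets of Cox7a2l were below 0 for CD49f within CD25- cells, at -0.23 and -0.14, and did not pass. Cox4i1 and Cox5a, 2 nuclear subunits that contact the catalytic core, differed by 0.18 ± 0.08 (SE; limma adjusted p = 0.189) and 0.30 ± 0.10 (limma adjusted p = 0.0585) for CD49f within CD25- cells. Cox5a ran from 11.85 to 12.09 (median 11.98) in CD25-CD49f+ cells and from 11.00 to 11.96 (median 11.77) in CD25-CD49f- cells, where replicate 7 gave 11.00 and the other 6 at least 11.71. Without the 4 arrays, 6 genes of complex IV were higher and 2 were lower for CD49f within CD25- cells. These are 42.1% of the 19, 31.6% as higher, beside 19.1% of all genes called, 10.3% as higher. Cox5a was among the higher ones (0.24, limma adjusted p = 0.00568). Cox7a2l, a factor that joins complexes into supercomplexes, was among the lower ones (-0.24, limma adjusted p = 0.00606).

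The complex IV gene called on all arrays was Cox6a2, the isoform of heart and skeletal muscle. It had signals of 5.69, 5.66, 5.71 and 5.71 on CD25+CD49f+ arrays and 5.52, 5.69, 5.75, 5.48 and 5.78 on CD25+CD49f- arrays, and it ran from 5.37 to 5.89 (median 5.56) in CD25-CD49f+ cells and from 5.92 to 6.82 (median 6.07) in CD25-CD49f- cells. All CD25-CD49f- arrays lay above all others, and only replicate 7, at 6.82, was above the absent range. The difference was -0.56 ± 0.11 (SE; limma adjusted p = 5.37e-04) for CD49f within CD25- cells and -0.54 ± 0.12 (limma adjusted p = 0.0017) for CD25 within CD49f- cells. Of the 7 myeloid and dendritic markers, Siglech, Itgax and Flt3 were also highest in that gate, while Lyz2 and Csf1r overlapped between the CD25- gates. Siglech had a median of 5.77 in CD25+CD49f+ cells, 5.83 in CD25+CD49f- cells, 5.67 on CD25-CD49f+ arrays and 7.24 on CD25-CD49f- arrays, and Itgax had 6.29, 6.24, 6.69 and 8.73 in the same order. Their part in the signal of Cox6a2 was not tested. Of the other 7 tissue isoforms, Cox4i2, Cox6b2, Cox7a1, Cox7b2, Cox8b and Ndufa4l2 had means in the absent range and no call on all arrays. Cox8c, the testis isoform, was above it, with means of 7.91 ± 0.16 (SD, n = 4) on CD25+CD49f+ arrays, 7.77 ± 0.05 (SD, n = 5) on CD25+CD49f- arrays, 7.79 ± 0.21 (SD, n = 7) on CD25-CD49f+ arrays and 7.80 ± 0.20 (SD, n = 7) on CD25-CD49f- arrays, and it was not called in any comparison.

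ATP synthase, with 17 genes, had 3 higher for CD49f within CD25- cells and 2 higher for CD25 within CD49f- cells. These are 17.6% and 11.8% of its genes, near the 13.4% and 14% of all genes called. All 17 differences of the CD49f comparison were above 0, as were 86.2% of the 94 and 42.9% of all genes. Atp5j, coupling factor 6 of the peripheral stalk, had the smallest adjusted p of the 94 genes for CD49f within CD25- cells. Its levels were 10.52, 10.67, 10.57 and 10.48 on CD25+CD49f+ arrays, 10.52, 10.70, 10.54, 10.52 and 10.40 on CD25+CD49f- arrays, 10.57 to 10.73 (median 10.60) in CD25-CD49f+ cells and 10.17 to 10.40 (median 10.27) in CD25-CD49f- cells. The CD25- gates did not overlap, and their difference was 0.34 ± 0.06 (SE; limma adjusted p = 1.63e-04), a 1.27-fold change. For CD25 within CD49f- cells it was 0.25 ± 0.07 (limma adjusted p = 0.00907), and for CD49f within CD25+ cells 0.02 (95% interval -0.13 to 0.18). Atp5mpl, a small membrane subunit, differed by 0.31 ± 0.10 for CD49f within CD25- cells (limma adjusted p = 0.0344), a call lost without the 4 arrays (0.28, adjusted p = 0.0544).

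The ring of the membrane sector is made of identical c subunits that Atp5g1, Atp5g2 and Atp5g3 code alike in their mature form, and of these Atp5g3 alone was called on all arrays. Atp5g3 had levels of 12.08 to 12.39 (median 12.24) in CD25-CD49f+ cells and 11.48 to 12.09 (median 12.05) in CD25-CD49f- cells, gates that overlapped between 12.08 and 12.09. Its difference was 0.29 ± 0.08 (SE; limma adjusted p = 0.0138), and for CD25 within CD49f- cells it was 0.32 ± 0.09 (limma adjusted p = 0.013). Atp5g1 and Atp5g2 differed by 0.04 and 0.03 for CD49f within CD25- cells, and CD25-CD49f+ replicate 1 and CD25-CD49f- replicate 7 carried the highest levels of both in their groups. For CD25 within CD49f- cells, Atp5g1 was called without the 4 arrays (0.30, adjusted p = 0.0101) and with array weights. The difference between the 3 genes was not tested. None of the 5 measured genes of the catalytic head was called on all arrays with the probe sets used. Atp5a1, Atp5b and Atp5c1 differed by 0.13, 0.13 and 0.20 for CD49f within CD25- cells. With the mean of all probe sets, Atp5a1 was called there and for CD25 within CD49f- cells (limma adjusted p = 0.00111 and 0.00323). That mean includes a probe set of Atp5a1 in the absent range, at a mean of 6.35. On CD25+CD49f- replicate 5, Atp5b had 10.32, against 11.45 to 11.75 on the other 4 arrays of its gate.

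Within CD25+ cells, the gates with and without CD49f are the ones the title sets apart, and none of their respiratory genes was called with limma on all arrays, while 2 were with array weights (4.19% of all genes). The 94 differences ran from -0.35 to 0.27, with a median standard error of 0.12, and 29 of them were above 0. Leaving out the 4 arrays, of which CD25+CD49f- replicate 5 is in this comparison, left 12 of 94 above 0 (12.8%), and 6 of the 71 subunits, against 51.4% of all genes, with the median at -0.07 as before. The mean centred level of the 71 subunits was -0.09, 0.09, 0.08 and -0.03 on CD25+CD49f+ replicates 1 to 4, and -0.02, 0.16, 0.15, 0.04 and 0.10 on CD25+CD49f- replicates 1 to 5. The gates overlapped, and the CD25+CD49f+ array was 0.07 lower than the CD25+CD49f- array of the same number at each of the 4 shared numbers, and 0.07 to 0.10 lower in complex I. Those arrays also matched in Xist and Y-linked transcripts at all 4 numbers, but the labels do not say that a number marks a pair, and these means were not tested. Ndufb10, an accessory subunit of complex I, had the smallest p, with levels of 8.72, 9.03, 9.15 and 8.87 on CD25+CD49f+ arrays and 9.05, 9.21, 9.27, 8.91 and 9.48 on CD25+CD49f- arrays. The gates overlapped, and the difference was -0.24 (95% interval -0.45 to -0.03; limma adjusted p = 0.534). Next came Ndufs5 at -0.24 (adjusted p = 0.575), whose signal is in the absent range. The smallest p-values among genes above 0 were those of Ndufa4l2 and Cox6b2, at 0.22 and 0.23, also in the absent range. Cell cycle genes differed in the same comparison, with 9 of 20 higher in CD25+CD49f+ cells and none lower, Cdk1 by 0.82 ± 0.15 (SE; limma adjusted p = 0.00153). The 9 are 45% of that list, against 1.82% of all genes called.

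Whether the effect of CD49f differed between CD25+ and CD25- cells was tested as an interaction. The median over the 94 genes was -0.22, against 0.03 over all genes, and 12 of the 94 were above 0. On all arrays 1 gene was called, Cox6a2 at 0.61 ± 0.17 (SE; limma adjusted p = 0.0394), against 5.31% of all genes, 0.984% higher and 4.33% lower. The next were Ndufs8 at -0.52 (adjusted p = 0.0512), Atp5j at -0.32 (0.0558), Ndufa12 at -0.48 (0.0600), Uqcr11 at -0.49 (0.0781) and Ndufb6 at -0.44 (0.0983). With the 4 arrays left out, 12 genes were called, Cox6a2 as higher and 11 as lower, among them Atp5j, Ndufa12, Uqcr11, Uqcrq, Sdhb and Sdhd, where 9.4% of all genes were called, 2.35% higher and 7.05% lower. Neither subset by Y-linked transcripts gave a call with limma, with 7 and 16 genes at an unadjusted p under 0.05 and 2.03% and 1.33% of all genes called. Leaving out 1 array at a time gave between 0 and 8, with 8 called without CD25-CD49f- replicate 1, so the count of calls rests on single arrays.

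Genes that feed or regulate the chain were counted from lists of named pathways, in the 2 comparisons that share the CD25-CD49f- arrays. Of 13 electron carriers and further subunits, 3 were higher for CD49f within CD25- cells, and 4 were higher and 2 lower for CD25 within CD49f- cells. These are 23.1% and 46.2% of the list, beside 13.4% and 14% of all genes called. Atpif1, the inhibitor that keeps ATP synthase from running backwards, differed by 0.86 ± 0.12 (SE; limma adjusted p = 7.62e-06) and 0.94 ± 0.13 (limma adjusted p = 6.5e-06), with means of 9.72, 9.70, 9.62 and 8.76 in the order of the gates used above. Its interaction was -0.85 ± 0.19 (limma adjusted p = 0.00647). Etfb, a subunit of the flavoprotein that takes electrons from fatty acid oxidation, differed by 0.57 and 0.50, and its interaction was -0.48 (limma adjusted p = 0.00555). Gpd2, the mitochondrial glycerol-3-phosphate dehydrogenase, was lower in CD25+ cells, at -0.79 ± 0.16 within CD49f+ cells (limma adjusted p = 0.00174) and -0.72 ± 0.15 within CD49f- cells (limma adjusted p = 9.16e-04).

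Assembly factors with other names numbered 33, with 5 higher and none lower in each of these 2 comparisons, Cox20 and Surf1 of complex IV by 0.33 each for CD49f within CD25- cells (limma adjusted p = 7.1e-04 and 0.00308). Each count is 15.2% of the list, near the 13.4% and 14% of all genes called in the 2 comparisons. Fatty acid oxidation had 4 of 12 higher and 1 lower for CD49f within CD25- cells, and 5 higher and 1 lower for CD25 within CD49f- cells. These are 41.7% and 50% of the list, against the same 13.4% and 14%. Decr1, which handles unsaturated fatty acids, was called in all 4 comparisons, at 0.45 and 0.87 for CD49f within CD25+ and CD25- cells and at 0.43 and 0.85 for CD25 within CD49f+ and CD49f- cells. Acadl, the long-chain dehydrogenase, was 1.15 ± 0.18 higher and Acadm, the medium-chain one, 0.40 lower (-0.40 ± 0.08) for CD49f within CD25- cells (limma adjusted p = 3.09e-05 and 0.00105). The citric acid cycle had 2 of 12 higher for CD49f within CD25- cells, Idh3a by 0.46 and Fh1 by 0.38, and none called for CD25 within CD49f- cells. The 2 are 16.7% of the list, near the 13.4% of all genes called. Of 9 adenine nucleotide and phosphate carriers and porins, 2 were higher for CD49f within CD25- cells, Slc25a4 and Slc25a5, at 0.32 each, and none was called for CD25 within CD49f- cells. The 2 are 22.2% of that list, beside 13.4% of all genes. Slc25a5 was at 0.20 without the 4 arrays, and still called (adjusted p = 0.0171).

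Among 20 regulators of mitochondrial biogenesis and of mitochondrial DNA, none was higher and 2 were lower for CD49f within CD25- cells, Nrf1 at -0.30 ± 0.07 (SE; limma adjusted p = 0.00203) and Pprc1, a coactivator of the PGC-1 family, at -0.49 ± 0.12 (limma adjusted p = 0.0077). That is 10% of the list, beside 13.4% of all genes called. For CD25 within CD49f- cells 2 were higher and 1 was lower, 15% of the list beside 14% of all genes. Gabpb1, a subunit of the ETS factor GABP, was at 0.54 ± 0.16 (limma adjusted p = 0.0183) and Twnk, the mitochondrial helicase, at 0.29, while Gabpb2, the other form of that subunit, was at -0.32 (-0.21 without the 4 arrays). Myc and Twnk were 0.73 and 0.43 higher for CD25 within CD49f+ cells. Mitochondrial ribosomal proteins had 10 of 76 higher and 1 lower for CD49f within CD25- cells, and 9 higher and 1 lower for CD25 within CD49f- cells, Mrps6 by 0.63 and 1.15. These are 14.5% and 13.2% of that list, near the 13.4% and 14% of all genes called. The protein import channels had 2 of 23 higher in each, and cytosolic ribosomal proteins had 2 of 46 higher and 3 lower for CD49f within CD25- cells, and 3 higher and 2 lower for CD25 within CD49f- cells. In each comparison these are 8.7% and 10.9% of the 2 lists, below the 13.4% and 14% of all genes. Cell cycle genes had 18 of 20 higher for CD49f within CD25- cells and 12 of 20 for CD25 within CD49f- cells, while 13 of 20 were lower for CD25 within CD49f+ cells. These are 90%, 60% and 65% of the list, against 13.4%, 14% and 5.72% of all genes called. The part of cell division in the differences of the respiratory genes was not tested. Of the mitochondrially coded subunits only ND5 was measured, and it was not called in any comparison.

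**Figure D4:**
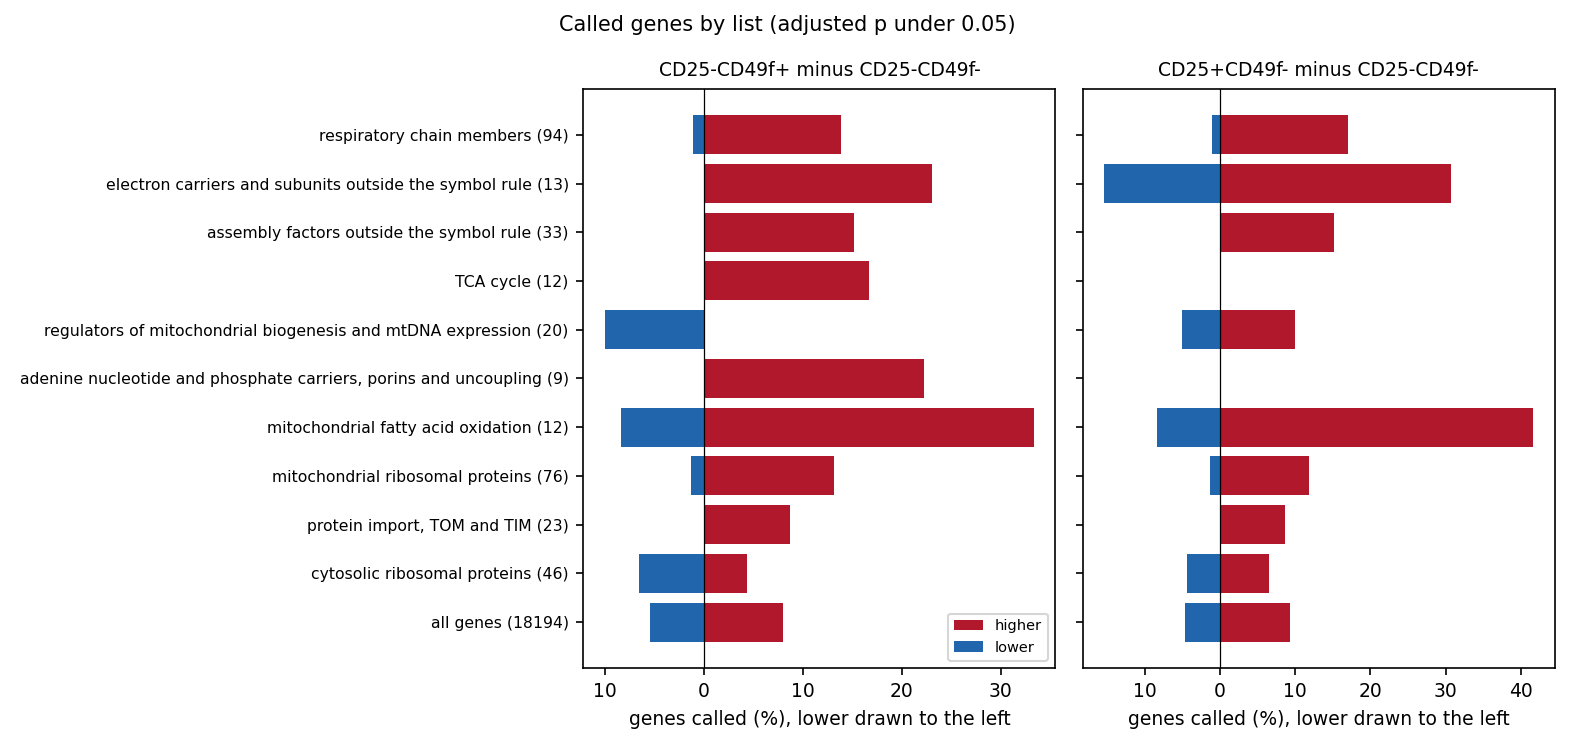
Share of genes in the lists drawn called at an adjusted p under 0.05 as higher (red, right) or lower (blue, left), in percent, for CD25-CD49f+ against CD25-CD49f- cells (left panel) and CD25+CD49f- against CD25-CD49f- cells (right panel), with the list size in brackets. The cell cycle list and ND5 are not drawn. The 94 respiratory genes had 13 and 16 called higher, beside 8.01% and 9.34% of all genes in the lowest bars.

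Of the 94 genes, 43 had further probe sets above the absent range, 61 in all. The sign of the difference matched that of the probe set used for 37 of the 61 for CD49f within CD25+ cells, 57 for CD49f within CD25- cells, 42 for CD25 within CD49f+ cells and 49 for CD25 within CD49f- cells. Levels of different probe sets were not set against each other.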

How the data were processed

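The authors deposited log2 expression values of 45101 probe sets on 23 Affymetrix arrays, made with RMA per the submitters' processing notes; no version of it is stated there. RMA corrects background and equalises the arrays' distributions, so a shift shared by all genes would be removed. Through the array annotation 34958 probe sets named 1 gene, 932 several and 9211 none, which gave 18194 genes. The 4 groups were fitted together with limma 3.58.1 in R 4.3.3, with Benjamini-Hochberg adjustment over all genes. The fit was checked on simulated data. Figures were drawn with matplotlib 3.10.9 in Python 3.11.15. The number of arrays limits the precision.

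The members and lists were chosen with earlier results of these data known. The genes named are core subunits in every comparison, the 8 called genes with the smallest p per direction (or the 2 smallest uncalled), tissue isoforms, the 6 smallest interaction p-values and up to 3 called genes per list. Others, such as Ndufa5, Ndufb7, Ndufb9, Ndufc2, Ndufab1, Atp5mpl, Cox7a2l, Sdhaf4 and Atp5h, were chosen after their values were seen. The alternatives left out single arrays or used the replicate number as a block, median and quantile scaling, the mean of all probe sets, the brighter genes, robust trended moderation, the compared groups alone, an adjusted p under 0.01 and array weights. Added after seeing the data were fits without the 4 arrays, by Y-linked transcripts, and with the difference between 3' and 5' Actb probe sets as a term, and a block by replicate number on same-numbered arrays only.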

Additional observations from a re-analysis of the deposited data

Results flagged for a closer look

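In 31 of 196 sets of values, each a gene or a mean within 1 gate, the highest or lowest array lay farther from its neighbours than Dixon's 95% limit allows, and chance alone gives such a case in about 1 of 20 groups. Sets from the same array are not independent. CD25-CD49f- replicate 7 accounted for 12 of them, with the mean centred log2 levels of complex I at -0.49 and of all 71 subunits at -0.40, and the log2 levels of Atp5a1 at 10.88, Atp5g1 at 9.13, Atp5g2 at 11.34, Atp5g3 at 11.48, Cox4i1 at 11.08, Cox5a at 11.00, Cox6a2 at 6.82, Ndufv2 at 9.08, Uqcrb at 11.60 and Uqcrfs1 at 8.32. That array carried the lowest level of 40 of the 94 genes.

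CD25-CD49f+ replicate 1 accounted for 8, with the mean centred level of complex IV at -0.06 and the levels of Atp5g1 at 9.16, Atp5g2 at 10.99, Ndufv2 at 10.35, Sdhb at 10.26, Uqcrb at 12.20, Uqcrfs1 at 9.26 and Uqcrq at 10.55. CD25+CD49f- replicate 5 accounted for 6, with Atp5b at 10.32, Atp5c1 at 10.51, Atp5g2 at 9.47, Cox5a at 12.13, Ndufs3 at 9.40 and Uqcrfs1 at 8.98. The other 5 were Atp5c1 at 10.77 and Ndufa12 at 10.16 on CD25-CD49f- replicate 1, Cox8b at 4.78 on CD25-CD49f- replicate 4, Sdhb at 10.03 on CD25+CD49f+ replicate 3, and the mean centred level of all subunits at 0.00 on CD25-CD49f+ replicate 2. The difference between 3' and 5' Actb probe sets, a sign of RNA quality, was 4.83 on CD25+CD49f- replicate 5 and 2.70 on CD25-CD49f- replicate 1, and a fit with it as a term changed some calls. Ndufv2 was then at 0.46 for CD25 within CD49f- cells and no longer called (limma adjusted p = 0.0620), and Cox5a was called for CD49f within CD25- cells at 0.33 (limma adjusted p = 0.0206).

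The effect of CD49f on the signal of Cox6a2 differed between CD25+ and CD25- cells by 0.61 in limma's interaction test (adjusted p = 0.0394). That signal lay in the absent range on 22 of 23 arrays, so the size of the difference is not a measured fold. The call was lost on leaving out any 1 of 12 arrays (adjusted p from 0.0157 to 0.0826 over all 23) and within arrays without and with Y-linked transcripts (adjusted p = 0.464 and 0.292). Y-linked transcripts were found on 11 arrays although all mice are labelled female.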

How the results depend on the processing

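On all arrays 0, 14, 1, 17 and 1 of the 94 genes were called for CD49f within CD25+ cells, CD49f within CD25- cells, CD25 within CD49f+ cells, CD25 within CD49f- cells and the interaction. Counts that changed by over 1.5 times are given here, and the cause was not tested unless stated. Shares of all genes called under the same setting follow in brackets. With array weights the counts were 2 (4.19%), 27 (20.6%), 4 (16.9%), 27 (20.1%) and 22 (12.5%). Without the 4 arrays that stood apart the last 4 were 29 (19.1%), 3 (13%), 26 (19.7%) and 12 (9.4%). At an adjusted p under 0.01, a stricter threshold, they were 4 (8.99%) and 9 (9.81%) for CD49f within CD25- and CD25 within CD49f- cells and 0 (3.29%) for the interaction. Within arrays free of Y-linked transcripts, which are fewer, the same 3 were 0 (7.37%), 1 (7.06%) and 0 (2.03%), and within Y-linked arrays 3 (5.94%), 4 (5.52%) and 0 (1.33%). With the Actb term they were 23 (14.9%) for CD49f within CD25- cells, 2 (6.81%) for CD25 within CD49f+ cells and 3 (5.9%) for the interaction. The compared groups alone gave 8 (9.96%) for CD25 within CD49f- cells. The interaction had 5 (5.71%) with the mean of all probe sets, 3 (8.09%) with the brighter genes and 2 (5.32%) with a term for Y-linked transcripts. Leaving out 1 array at a time gave 0 to 0, 8 to 19, 1 to 1, 12 to 22 and 0 to 8 calls. Shares of all genes are not given for these fits. CD49f within CD25- cells had 8 without CD25-CD49f+ replicate 4. The interaction had 8, 5 and 3 without CD25-CD49f- replicates 1, 7 and 4, and 3 without CD25+CD49f- replicate 4. It had 2 without CD25+CD49f+ replicate 2 or 3, CD25+CD49f- replicate 1 or 5 or CD25-CD49f+ replicate 4. Its 1 call was lost, leaving 0, without CD25+CD49f+ replicate 1 or 4, CD25+CD49f- replicate 2, CD25-CD49f+ replicate 5 or 6 or CD25-CD49f- replicate 2. Median and quantile scaling and robust trended moderation stayed within 1.5 times.

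With the replicate number as a block the counts were 0, 16, 1, 15 and 1, for which no share of all genes is given. Same-numbered arrays of 2 groups had deviations that correlated between -0.10 and 0.38, -0.07 and 0.35, -0.20 and 0.27, and -0.51 and 0.01 in the 4 pairwise comparisons, with 3 of 4, 6 of 7, 2 of 4 and 1 of 5 above 0. Not every pair was over 0.1 in any comparison and the labels name no shared source, so the fit without the block was kept. Xist and Y-linked transcripts matched at 4 of 4, 5 of 7, 2 of 4 and 1 of 5 shared numbers. Where they differed, the same-numbered arrays were not from the same mice alone. Where they matched, a shared source was not shown or excluded. With the block on the same-numbered arrays of the groups compared, chosen after seeing the data, the 4 counts were 0 (3.49%, with 3 at an unadjusted p under 0.05), 10 (12%), 1 (4.41%) and 3 (7.67%). Over the single genes and alternatives, 6153 results kept their side of the threshold, 128 lost a call, 67 gained one and none changed sign while called. Sdhaf1 kept its calls by CD25 under all 38 alternatives, between 0.90 and 0.99 within CD49f+ cells and between 1.20 and 1.41 within CD49f- cells. Signals in the absent range, 12 of the 94 genes, limit what can be said of those genes.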
